A study of Mus musculus with 48 samples.

Results

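The genes described here are 42 mouse genes of glycolysis and of the response to low oxygen, chosen by name from the 39017 gene identifiers counted in the series. They comprise 10 genes of sugar uptake and the early steps, 9 enzymes of the lower steps, 6 genes that decide the fate of pyruvate and lactate, 4 subunits and sensors of the hypoxia-inducible factor HIF, and 13 other genes known as HIF targets. RNA was sequenced from βTC3, a mouse insulinoma line, and AJ-5257-1 (AJ), a second line used as a model of pancreatic neuroendocrine tumours, with 48 libraries in 16 groups of 3. The groups of batch 1 were cells with the plasmid PB-33 ALK7-CA, which expresses a constitutively active form of the activin and nodal receptor ALK7 under doxycycline (dox, 2 µg/ml), after 2 and 24 h of dox, and cells with the plasmid PB-33 alone (vector) after 0, 2 and 24 h. The groups of batch 2 were AJ cells with PB-33 ALK7 after 24 h of dox, with or without activin B, and vector cells of both lines without dox, with or without activin B (50 ng/ml for 24 h). Wells were plated in triplicate, and nothing in the labels says that replicates were separate cultures or how many clones a line was, so the p-values measure only the spread between these libraries.

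Glycolysis splits glucose into pyruvate. Pyruvate either enters mitochondria, which pyruvate dehydrogenase kinases restrain, or becomes lactate through lactate dehydrogenase and leaves or enters the cell through monocarboxylate transporters. HIF is a pair of an alpha subunit (HIF-1α from Hif1a, HIF-2α from Epas1) and a constant partner. Oxygen-dependent prolyl hydroxylases (Egln1, Egln3) mark the alpha subunit for destruction, mainly at the protein level, and the complex binds short elements with the core ACGTG in the promoters of many glycolytic genes. Normal beta cells are known for low Ldha and Slc16a1.

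Promoters of 4 genes on which the results turn are shown for the HIF core and for CAGAC, a core bound by SMAD proteins, the transcription factors downstream of activin receptors. They run from 250 bases before to 50 bases after the start given by RefSeq (GRCm38.p6), 5′ to 3′, with each match to ACGTG or CAGAC, on either strand, in capitals; a CACGTG is a match on both strands and counts as 2. Ldha, the lactate dehydrogenase A chain, lies at chr7:46845554-46845853 on the plus strand and held 5 matches to ACGTG and 0 to CAGAC. A second Ldha promoter in the table, at chr7:46846832-46847131, held 0 matches to either core and is not shown; the other 3 genes have 1 promoter each there.
Ldha: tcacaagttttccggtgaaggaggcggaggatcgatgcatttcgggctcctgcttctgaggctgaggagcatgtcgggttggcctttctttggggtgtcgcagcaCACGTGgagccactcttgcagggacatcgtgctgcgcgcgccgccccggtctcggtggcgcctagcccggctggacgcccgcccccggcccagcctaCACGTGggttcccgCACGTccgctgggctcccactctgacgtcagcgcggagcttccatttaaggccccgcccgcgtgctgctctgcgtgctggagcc
Slc16a1, the monocarboxylate transporter MCT1, lies at chr3:104638414-104638713 on the plus strand and held 3 matches to ACGTG and 1 to CAGAC.
Slc16a1: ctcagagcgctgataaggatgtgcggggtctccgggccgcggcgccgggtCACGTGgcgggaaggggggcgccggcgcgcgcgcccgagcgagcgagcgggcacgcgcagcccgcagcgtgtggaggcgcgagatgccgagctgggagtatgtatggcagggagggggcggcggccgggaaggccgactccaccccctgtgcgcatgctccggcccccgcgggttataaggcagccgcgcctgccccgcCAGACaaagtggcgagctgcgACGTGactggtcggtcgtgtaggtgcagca
P4ha2, a subunit of the enzyme that hydroxylates collagen prolines, lies at chr11:54100674-54100973 on the plus strand and held 2 matches to ACGTG and 0 to CAGAC.
P4ha2: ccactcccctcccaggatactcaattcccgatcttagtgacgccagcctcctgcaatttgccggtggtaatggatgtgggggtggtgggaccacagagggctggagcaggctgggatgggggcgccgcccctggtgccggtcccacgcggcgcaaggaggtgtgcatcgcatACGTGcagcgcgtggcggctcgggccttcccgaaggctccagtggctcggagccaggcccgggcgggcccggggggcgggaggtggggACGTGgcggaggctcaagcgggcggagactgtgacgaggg
Higd1a, a small mitochondrial protein induced by hypoxia, lies at chr9:121857747-121858046 on the minus strand and held 1 match to each core.
Higd1a: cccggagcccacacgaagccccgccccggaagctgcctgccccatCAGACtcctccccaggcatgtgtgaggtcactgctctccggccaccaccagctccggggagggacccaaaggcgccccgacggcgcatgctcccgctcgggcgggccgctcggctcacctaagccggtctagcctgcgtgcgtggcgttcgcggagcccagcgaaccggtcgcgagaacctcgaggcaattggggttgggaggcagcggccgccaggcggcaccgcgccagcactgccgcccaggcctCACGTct

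Of the 42 genes, 38 had a promoter in the RefSeq table, with 57 promoters in all; Epas1, Ndrg1, Slc2a3 and Bnip3l had none. ACGTG stood in 31 of the 57 (54.39%), against 19.62% of all 32851 promoters of that length, and CAGAC in 27 of the 57 (47.37%), against 49.59%. Since 13 of the genes were picked as HIF targets and glycolytic enzymes are known ones, the share for ACGTG follows from the choice. A match is a description of letters and not a binding site.

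Total counts ran from 17.98 M to 38.8 M per library, and the 42 genes together took 0.415 to 0.797% of them. All 9 endocrine markers had a median of at least 1 CPM (count per M counts, scaled by library) in both lines. Of 7 beta-cell markers 7 did in βTC3 and 5 in AJ. Ins1 and Ins2 had medians of 1.27 and 0.137 CPM in AJ, against 2945 and 10079 CPM in βTC3. The delta-cell markers Sst and Hhex summed to 221 to 2996 CPM in AJ and 5.51 to 33.8 CPM in βTC3. Alpha-cell markers summed to 4.64 to 35.3 CPM in AJ and 30.7 to 144 CPM in βTC3. The summed levels of fibroblast, endothelial, immune and erythroid markers never passed 9.35 CPM. Duct markers summed to 9.12 to 35.0 CPM in βTC3 and 0.58 to 4.43 CPM in AJ. Acinar markers summed to at most 1.22 CPM in βTC3 and 6.47 CPM in AJ. Ppy, the PP-cell marker, reached 1.86 CPM in βTC3 and 15.8 CPM in AJ. Smad7, a standard target of activin receptor signalling, rose in all 7 comparisons of receptor or ligand. The receptor's own transcript, Acvr1c, fell in all of them except βTC3 at 2 h of ALK7-CA, where it did not pass. Between AJ ALK7 cells with dox and AJ vector cells without it, both without ligand, it did not pass either (log2 0.25, adjusted p = 0.16). Counts of that gene thus did not show the plasmids. Replicate 1 of the AJ ALK7-CA 24 h group held 5 genes typical of βTC3 at a median of 5.10% of their βTC3 level, where the next highest AJ library had 0.0662%. Calls in AJ after 24 h of ALK7-CA that are lost or gained without this library are given beside the results.

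Replicates of a group were tightest for Ndrg1 (median coefficient of variation over the groups 2.53%), Pfkp (2.77%) and Egln1 (3.04%), and, apart from the sparse Adm, widest for Gapdh (43.63%), Pgk1 (18.64%) and Eno1 (17.43%). Gapdh, a glycolytic enzyme often used as a constant reference, ran from 27.1 to 266 CPM within the AJ vector group at 2 h of dox alone. Of the 50-base stretches in these genes' transcripts, 53.88% of Pgk1, 36.16% of Pgam1, 25.99% of Eno1, 25.77% of Pkm, 24.71% of Gapdh, 20.99% of Ldhb, 20.76% of Bnip3l and 16.55% of Bnip3 also occur in transcripts of other annotated genes, pseudogenes among them. How reads that fit several places were counted is not given in the sources used here, so levels of these genes are uncertain. Car9, a carbonic anhydrase that is a classic HIF target, had 0 to 11 counts per βTC3 library and 0 to 3 per AJ library and was tested nowhere.

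In AJ after 24 h of ALK7-CA, 8 of the 40 genes tested rose and 20 fell (70% in either direction, against 40.7% of all genes tested, 20.8% rising and 19.9% falling), and the median log2 change was -0.40 against -0.01 over all genes. In βTC3 after 24 h, 4 of 41 rose and 5 fell (22%, against 13.5% of all genes, 8.02% rising and 5.48% falling), with a median of -0.05 against -0.01. Replicate numbers paired the libraries of batch 1, and with the replicate as a block the βTC3 count was 14 (6 rose and 8 fell). The share of all genes passing with the block is not given here or below. Counts with the block therefore cannot be set against the shares of all genes. The direct test of the difference between the lines passed for 16 of 41 genes (39%, against 17.5% of all genes), 12 of them with a more positive change in βTC3 (9.18% of all genes) and 4 with a more negative one (8.32%). Without the AJ library that held βTC3 transcripts, the difference between the lines also passed for Aldoa (0.56 on the log2 scale, adjusted p = 0.018; 0.46 with it), Slc16a1 (0.49, adjusted p = 0.0189; 0.33 with it) and Pgam1 (0.45, adjusted p = 0.0294; 0.28 with it). With all libraries Aldoa also passed under DESeq2 (adjusted p = 0.0128) and with the replicate block (0.00773). The block further added Pfkl, Slc2a1, P4ha1, Ankrd37 and Adm, and DESeq2 added Pdk1 and Ankrd37.

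After 2 h of ALK7-CA, 3 of 40 genes rose and 9 fell in AJ (30%, against 15.8% of all genes, 8.24% rising and 7.54% falling). With the replicate block Pfkl (log2 -0.39), Aldoa (-0.38), Slc2a1 (-0.34), Tpi1 (-0.31) and Slc2a3 (-0.18) also passed as lower in AJ. Their adjusted p values ran from 0.0221 to 0.0469. In βTC3 0 of 41 passed edgeR's test at 2 h (1.53% of all genes did, 1.25% rising and 0.272% falling). Of the 41, 11 had an unadjusted p under 0.05, DESeq2 called 1, P4ha2, and the fit with the replicate block called 7, of which Hk1, Eno2, Egln1, Bnip3 and P4ha2 were higher and Ldhb and Ndrg1 lower.

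Activin B at 24 h gave 8 rising and 5 falling genes of 39 in βTC3 vector cells (33.3%, against 22.2% of all genes, 12.3% rising and 9.97% falling). With the replicate block Hif1a (adjusted p = 0.0484) and Ndrg1 (0.0215) also passed as higher in βTC3, and Pgam1 (0.0375) as lower. In AJ vector cells 5 of 39 rose and 6 fell (28.2%, against 22.5% of all genes, 11.6% rising and 10.9% falling). In AJ cells with the ALK7 plasmid 8 of 39 rose and 8 fell (41%, against 32.8% of all genes, 16.5% rising and 16.3% falling). These 3 comparisons share no libraries.

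The differences between effects were tested as well. Between 24 and 2 h of ALK7-CA, 2 of 41 genes had a more positive change and 2 a more negative one in βTC3 (9.76%, against 5.85% of all genes, 3.68% and 2.17%), 11 genes passing with the replicate block. In AJ 3 of 40 had a more positive change at 24 h and 10 a more negative one (32.5%, against 21% of all genes, 10.8% and 10.2%). Pfkp also passed, as more negative, without the library that held βTC3 transcripts (adjusted p = 0.0282, 0.0706 with it). With the replicate block Pfkp (adjusted p = 0.0463) passed as more negative too, and Hk1 (0.0272) and Kdm3a (0.0265) passed as more positive. The activin B effect was more positive in βTC3 than in AJ for 5 of 41 genes and more negative for 2 (17.1%, against 9.12% of all genes, 4.51% and 4.61%). In AJ it was more positive with ALK7 than with the vector for 2 of 39 genes, Slc16a1 and Epas1, and more negative for 1, Ndrg1 (7.69%, against 2.56% of all genes, 1.15% and 1.41%). The Slc16a1 call was lost in 7 of the 12 fits that left out 1 library and the Epas1 call in 4. The ALK7 cells had dox and the vector cells had none, which this test cannot tell apart from the plasmid. The ALK7-CA effect at 24 h was more positive than that of activin B for 2 of 40 genes in AJ and more negative for 13 (37.5%, against 15.6% of all genes, 7.27% and 8.3%). Without the library that held βTC3 transcripts, Tpi1 (adjusted p = 0.0588) and P4ha1 (0.0604) did not pass this test, while Pfkl (0.0472) and Slc16a3 (0.0338) did. In βTC3 0 of 41 passed that test in edgeR or DESeq2 (1.36% of all genes did, 1.08% and 0.275%), 9 had an unadjusted p under 0.05, and 5 passed with the replicate block.

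**Figure D1:**
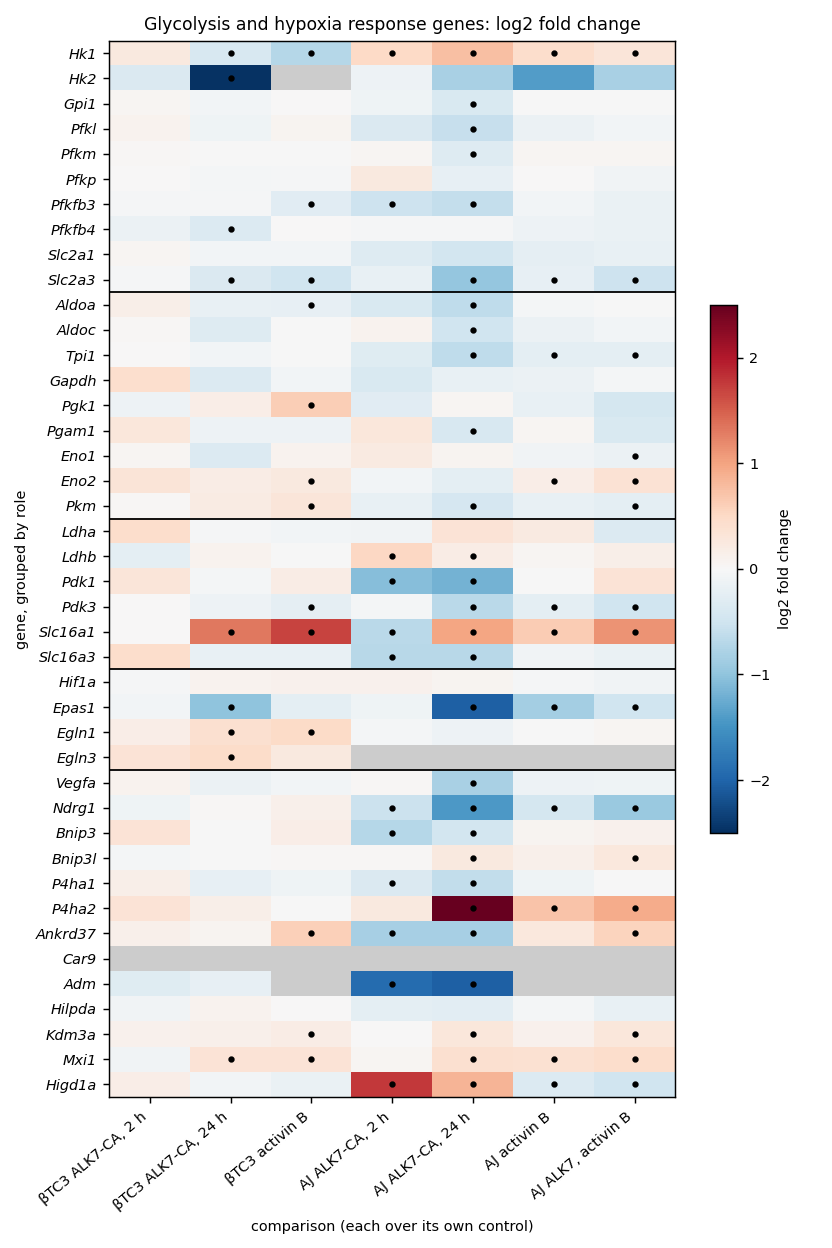
Log2 fold change of the 42 genes (rows, grouped by role between the black lines) in the 7 comparisons of receptor or ligand (columns), red higher and blue lower than the control of that comparison, with a dot where edgeR's adjusted p was under 0.05 and grey where the gene was not tested. Slc16a1 is red with a dot in 5 columns and blue with a dot at 2 h in AJ, Epas1 and Ndrg1 are blue in all 4 AJ columns, and the AJ column at 24 h of ALK7-CA has 28 dots.

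Among the genes of pyruvate and lactate, Slc16a1 rose in all 5 comparisons of receptor or ligand at 24 h. This transporter carries lactate and pyruvate across the cell membrane and is normally kept low in beta cells. In βTC3 it had 85.2, 81.3 and 93.5 CPM after 24 h of ALK7-CA, against 34.6, 34.7 and 35.3 CPM in vector cells at 24 h. The groups lie far apart, a 2.49-fold rise (log2 1.31 ± 0.07 SE, adjusted p = 2.1e-08). Activin B gave 61.4, 64.1 and 58.1 CPM in βTC3, against 21.5, 17.5 and 17.8 CPM in untreated cells, a 3.23-fold rise (log2 1.69 ± 0.09, adjusted p = 8.66e-06). The βTC3 changes under ALK7-CA and under activin B were not separated by the test of their difference in the main design, while with the replicate block the ALK7-CA change was smaller by 0.39 on the log2 scale (adjusted p = 0.0468).

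In AJ cells Slc16a1 had 20.9, 14.6 and 16.9 CPM after 24 h of ALK7-CA, against 8.50, 8.56 and 9.41 CPM in vector cells (log2 0.98 ± 0.11, adjusted p = 6.45e-06). The highest of these was the library that held βTC3 transcripts, and without it the change was 0.84 with an adjusted p of 7.42e-06. At 2 h the direction was the opposite, with 7.15, 7.02 and 7.49 CPM under ALK7-CA, against 11.02, 11.4 and 12.01 CPM in vector cells, a fall of 1.59-fold (log2 -0.67 ± 0.11, adjusted p = 0.000773). Every ALK7-CA library at 2 h lay below every vector library, and every one at 24 h above. Activin B raised it to 35.2, 38.6 and 38.1 CPM in AJ cells with ALK7, against 17.6, 18.02 and 15.6 CPM without ligand. In AJ vector cells it reached 23.3, 25.4 and 22.4 CPM with activin B, against 15.8, 15.5 and 14.5 CPM. The log2 changes were 1.13 ± 0.07 with ALK7 and 0.64 ± 0.07 with the vector, and their difference passed its own test (0.49, adjusted p = 0.0262), though not in 7 of the 12 fits that left out 1 library. The ALK7 cells had dox and the vector cells had none, so plasmid and dox cannot be told apart in this difference.

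Slc16a3, the transporter MCT4 that is known for lactate export, went with the falling genes in AJ: 15.4, 13.99 and 10.8 CPM after 24 h of ALK7-CA, against 23.9, 20.2 and 20.9 CPM in vector cells (log2 -0.69 ± 0.21, adjusted p = 0.0193). It did not pass without replicate 1 of the vector group or replicate 3 of the ALK7-CA group. Per kilobase of transcript, Slc16a1 made up 60.93% of the 2 transporters' summed level in AJ ALK7-CA cells at 24 h, against 32.94% in vector cells at 24 h. Pdk3 and Pdk1, kinases that restrain pyruvate dehydrogenase, were lower as well in AJ after 24 h of ALK7-CA. Pdk2, another such kinase, rose in the same comparison. Pdk3 had 23.5, 23.3 and 23.3 CPM, against 35.8, 36.3 and 39.2 CPM (log2 -0.67 ± 0.06, adjusted p = 1.68e-06), and it fell under activin B in βTC3 (log2 -0.22), in AJ vector cells (-0.24) and in AJ ALK7 cells (-0.50). The βTC3 call was lost in 4 of the 6 fits that left out 1 library.

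Pdk1 had 9.74, 5.55 and 6.26 CPM after 24 h of ALK7-CA in AJ, against 12.5, 9.74 and 26.3 CPM in vector cells, so the groups overlapped and replicate 3 of the vector group stood high. Its fall was 1.17 on the log2 scale (adjusted p = 0.0077), and without that vector library it was 0.63 (adjusted p = 0.0283). At 2 h it was 1.07 (adjusted p = 0.0278) without overlap, a call lost in 5 of the 6 fits that left out 1 library. Ldha had 73.8, 49.6 and 61.6 CPM after 24 h of ALK7-CA in AJ, against 38.9, 22.6 and 84.3 CPM in vector cells, and did not pass (log2 0.34 ± 0.36, adjusted p = 0.489). The same vector library was again the highest, and without it Ldha was higher under ALK7-CA by 1.00 on the log2 scale (adjusted p = 0.0095). Ldhb, the chain that predominates in oxidative tissues, rose in AJ at 2 h (log2 0.52) and at 24 h (0.19, lost in 3 of the 6 fits that left out 1 library).

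**Figure D2:**
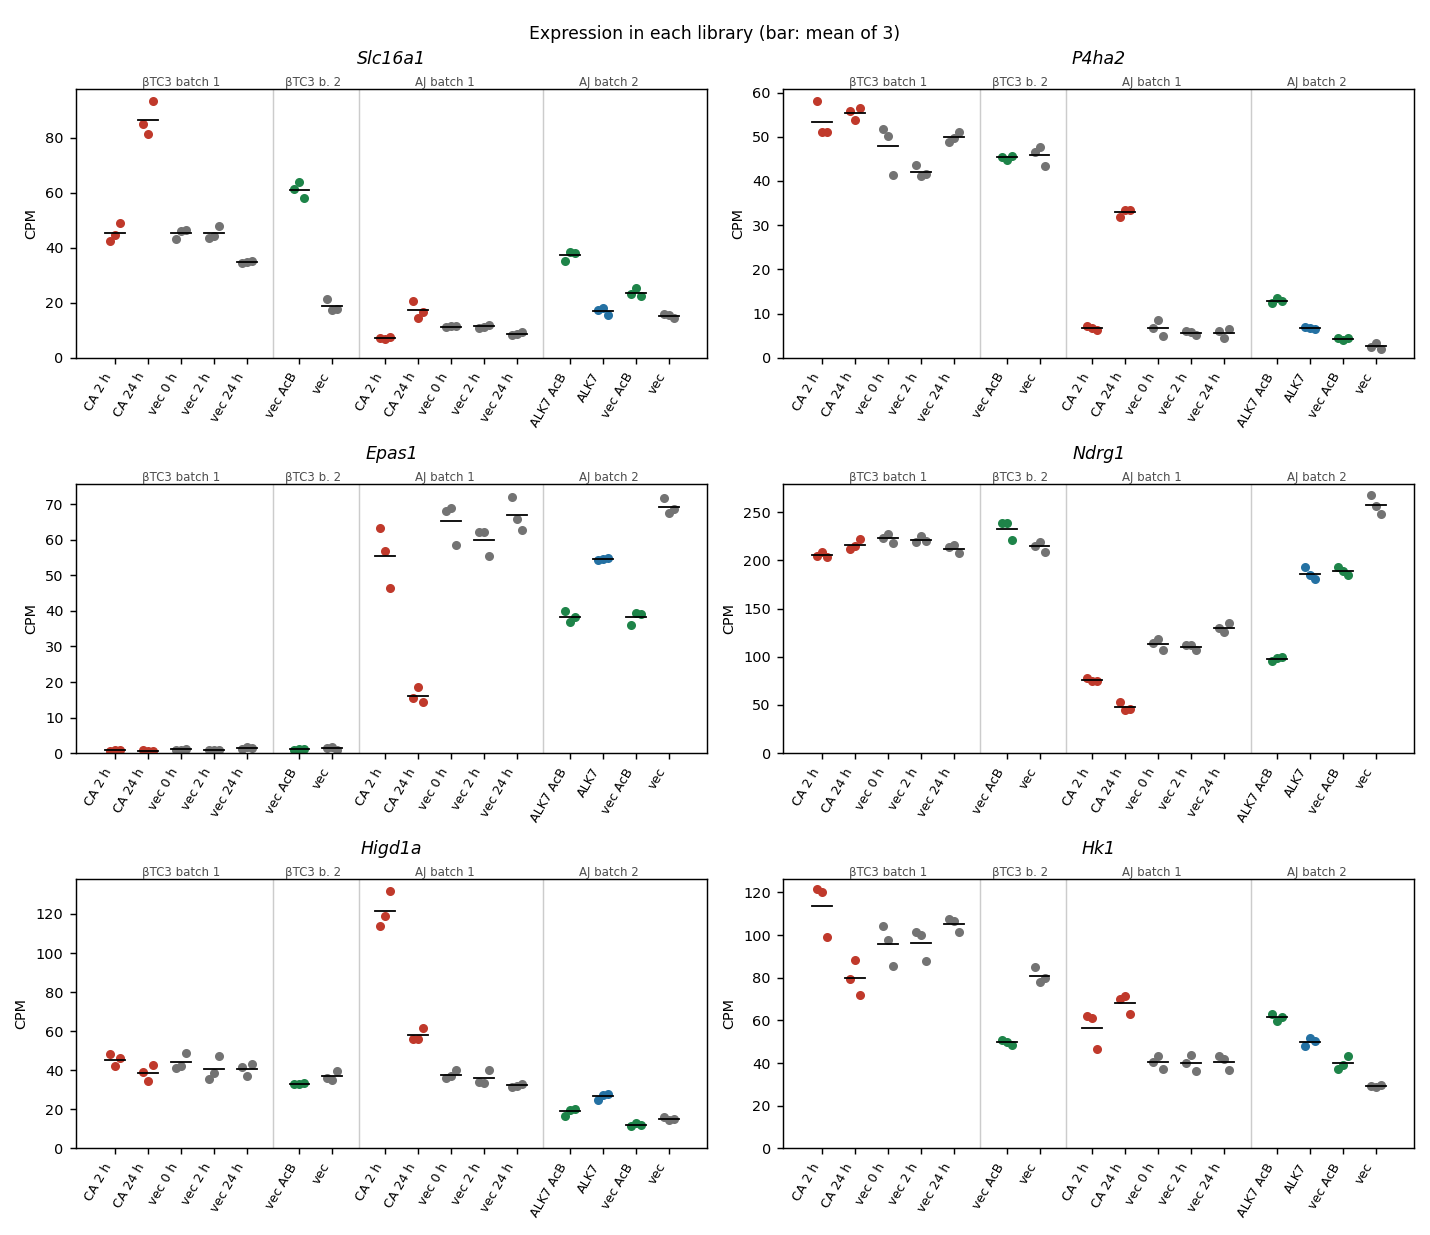
CPM of 6 genes in each library (points, scaled within each line and batch; bar, mean of 3) for ALK7-CA (CA, red), vector (vec, grey), ALK7 (blue) and activin B (AcB, green) groups, with hours of dox in batch 1. Slc16a1 points under ALK7-CA at 24 h and under activin B lie above their controls in both lines, while at 24 h P4ha2 points in AJ lie far above their controls and Epas1 and Ndrg1 points in AJ far below them.

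Among the HIF subunits, Hif1a passed in none of the 7 comparisons in the unblocked fit; with the replicate block it was higher with activin B in βTC3 (log2 0.11, adjusted p = 0.0484). Its log2 changes ran from -0.10 ± 0.09 (AJ ALK7 cells with activin B) to 0.11 ± 0.09 (AJ at 2 h of ALK7-CA). HIF protein, where most of its control lies, was not measured. In AJ it had 199, 205 and 221 CPM after 24 h of ALK7-CA, against 187, 186 and 225 CPM in vector cells, and the groups overlapped. In βTC3 the values were 151, 149 and 169 CPM, against 143, 144 and 155 CPM, also with overlap.

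Epas1, which encodes HIF-2α, fell in AJ cells. It had 15.6, 18.6 and 14.3 CPM after 24 h of ALK7-CA, against 72.1, 65.8 and 62.8 CPM in vector cells, a 4.14-fold fall (log2 -2.05 ± 0.12, adjusted p = 2.12e-08). No ALK7-CA library came near a vector library. At 2 h the levels were 63.4, 56.8 and 46.5 CPM, against 62.1, 62.1 and 55.6 CPM, and the gene did not pass (log2 -0.11). Activin B left 36.1, 39.4 and 39.0 CPM in AJ vector cells, against 71.7, 67.6 and 68.6 CPM in untreated cells (log2 -0.86 ± 0.05, adjusted p = 1.44e-07). In AJ ALK7 cells it left 40.1, 37.0 and 38.3 CPM, against 54.2, 54.6 and 54.8 CPM (log2 -0.50 ± 0.05, adjusted p = 7.45e-06). The ligand-treated levels of both plasmids lay close together, and the smaller fall with ALK7 went with a lower level before ligand.

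In βTC3 Epas1 was close to the floor, with 0.834, 0.558 and 0.656 CPM after 24 h of ALK7-CA, against 1.10, 1.68 and 1.38 CPM in vector cells (log2 -1.01 ± 0.22, adjusted p = 0.00719). Egln1, the main oxygen sensor of HIF, rose in βTC3. There it had 97.3, 95.6 and 90.6 CPM after 24 h of ALK7-CA, against 70.5, 72.5 and 71.1 CPM (log2 0.41 ± 0.06, adjusted p = 0.000434), and 78.9, 81.1 and 82.7 CPM with activin B, against 58.0, 58.1 and 59.2 CPM (log2 0.47 ± 0.04, adjusted p = 9.33e-05). In AJ after 24 h of ALK7-CA it did not pass without the block (log2 -0.12, adjusted p = 0.0648) and was lower with the replicate block (-0.12, adjusted p = 0.00778) or without replicate 3 of the vector group (-0.15, adjusted p = 0.0457). The differences from AJ passed for ALK7-CA (0.53 on the log2 scale) and for activin B (0.47). Egln3, an inducible sensor that is itself a HIF target, rose in βTC3 under ALK7-CA (log2 0.46, adjusted p = 0.0213), a call lost in 4 of the 6 fits that left out 1 library. In AJ Egln3 had 0 to 13 counts per library and was not tested within that line, and its 13 counts were in the library that held βTC3 transcripts.

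Of the other HIF targets, 5 of the 12 tested rose and 6 fell in AJ after 24 h of ALK7-CA (against 20.8% of all genes rising and 19.9% falling). Ndrg1, a differentiation- and stress-related gene, had 53.3, 45.0 and 45.9 CPM, against 130, 126 and 135 CPM in vector cells, a 2.71-fold fall without overlap (log2 -1.44 ± 0.06, adjusted p = 1.37e-09). At 2 h it had already fallen (log2 -0.54 ± 0.06), and the 24 h change was larger by the test of the difference (-0.90, adjusted p = 9.9e-06). With activin B Ndrg1 fell to 96.0, 98.6 and 99.5 CPM in AJ ALK7 cells, against 193, 185 and 181 CPM. In AJ vector cells it fell to 193, 189 and 185 CPM with activin B, against 268, 257 and 248 CPM.

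Vegfa, the angiogenic growth factor, had 129, 123 and 109 CPM after 24 h of ALK7-CA in AJ, against 222, 206 and 203 CPM (log2 -0.81 ± 0.10, adjusted p = 2.51e-05). It did not pass at 2 h or with activin B. Ankrd37 (log2 -0.84), the collagen prolyl hydroxylase P4ha1 (-0.62) and Bnip3, a mitophagy receptor (-0.45), fell too, Bnip3 with overlapping groups and with its call lost in 5 of the 6 fits that left out 1 library. Adm, the vasodilator peptide adrenomedullin, fell on few reads, 12 summed counts after 24 h of ALK7-CA against 56 in vector cells, a ratio of 0.235 with a 95% counting interval from 0.115 to 0.444. Without replicate 3 of the vector group the fall was 0.19 on the log2 scale for Bnip3 (adjusted p = 0.245) and 1.20 for Adm (adjusted p = 0.104), against 0.45 and 2.04 with it. Without the library that held βTC3 transcripts, Bnip3 (adjusted p = 0.0564), Adm (0.0559) and the rising Bnip3l (0.0542) did not pass, Slc2a1 did (log2 -0.59, adjusted p = 0.0266; -0.45 and 0.054 with it), and 26 of the 40 genes passed in all.

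P4ha2 rose by the largest factor of the 40 genes tested in AJ. It had 31.9, 33.4 and 33.4 CPM after 24 h of ALK7-CA, against 6.03, 4.62 and 6.53 CPM in vector cells, a 5.74-fold rise (log2 2.52 ± 0.17, adjusted p = 7.84e-08). At 2 h it had 7.18, 6.81 and 6.35 CPM, against 6.18, 5.84 and 5.23 CPM, and did not pass. In AJ ALK7 cells activin B gave 12.5, 13.5 and 12.9 CPM, against 7.06, 6.81 and 6.52 CPM (log2 0.93 ± 0.14). In AJ vector cells it gave 4.54, 4.12 and 4.45 CPM, against 2.53, 3.46 and 2.05 CPM (log2 0.71 ± 0.15). In βTC3, where P4ha2 was higher throughout, it had 55.8, 53.7 and 56.5 CPM after 24 h of ALK7-CA, against 48.8, 49.8 and 51.1 CPM, a difference that did not pass (log2 0.15). Per kilobase it made up 36.74% of the summed level of both collagen prolyl hydroxylase subunits in AJ ALK7-CA cells at 24 h, against 6.18% in vector cells at 24 h.

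Higd1a was highest early and took opposite directions under the active receptor and under ligand in AJ. It had 114, 119 and 132 CPM after 2 h of ALK7-CA, against 33.8, 33.7 and 40.02 CPM in vector cells, a 3.39-fold rise (log2 1.76 ± 0.08, adjusted p = 1.24e-08). At 24 h it had 56.1, 56.0 and 61.6 CPM, against 31.6, 32.2 and 33.1 CPM (log2 0.84 ± 0.08). With activin B it fell to 11.3, 12.8 and 12.2 CPM in AJ vector cells, against 16.1, 14.5 and 15.1 CPM (log2 -0.34 ± 0.09; not without replicate 1 of either group), and in AJ ALK7 cells by 0.49 on the log2 scale. ALK7-CA and activin B groups differ in batch as well, which cannot be told apart from the receptor. The AJ vector groups with and without activin B also had no dox, while both AJ ALK7 groups had 24 h of it.

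Mxi1, a repressor of MYC activity, rose in each of the 24 h comparisons, by log2 0.34 and 0.34 in βTC3 (ALK7-CA and activin B) and by 0.41, 0.38 and 0.45 in AJ (ALK7-CA, activin B with the vector and with ALK7). In AJ with ALK7-CA it had 111, 117 and 115 CPM, against 86.4, 84.1 and 88.1 CPM. The histone demethylase Kdm3a rose in AJ with ALK7-CA at 24 h (log2 0.29), in AJ ALK7 cells with activin B (0.28) and in βTC3 with activin B (0.19).

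Among the genes of sugar capture, Hk1, the hexokinase of most tissues, moved in opposite directions in the lines. In βTC3 it had 79.4, 88.5 and 71.8 CPM after 24 h of ALK7-CA, against 108, 107 and 101 CPM in vector cells (log2 -0.40 ± 0.10, adjusted p = 0.0162), a call lost in 4 of the 6 fits that left out 1 library. With activin B it had 50.6, 50.0 and 48.7 CPM, against 85.1, 77.9 and 80.04 CPM (log2 -0.70 ± 0.05). In AJ it had 70.2, 71.2 and 62.9 CPM after 24 h of ALK7-CA, against 43.3, 41.9 and 36.8 CPM (log2 0.74 ± 0.11, adjusted p = 0.000117), and 37.4, 38.9 and 43.3 CPM with activin B, against 29.1, 29.0 and 29.9 CPM (log2 0.44 ± 0.06). No library overlapped its control group in any of these. The difference between the lines passed its test for ALK7-CA (-1.14) and for activin B (-1.15).

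Hk2, the inducible hexokinase, was barely detected, with at most 24 counts in a βTC3 library. It had 9 summed counts after 24 h of ALK7-CA in βTC3, against 59 in vector cells, a ratio of 0.173 (95% counting interval 0.0753 to 0.351, adjusted p = 0.000404). In AJ after 24 h of ALK7-CA Hk2 did not pass (log2 -0.81, adjusted p = 0.0581) and was lower with the replicate block (-0.80, adjusted p = 0.0416). Slc2a3, a high-affinity glucose transporter, fell in 5 comparisons: in AJ at 24 h of ALK7-CA it had 40.7, 43.4 and 44.5 CPM, against 84.0, 76.5 and 91.9 CPM (log2 -0.97 ± 0.07, adjusted p = 6.36e-08). Its log2 changes in the others were -0.36 (βTC3 ALK7-CA), -0.50 (βTC3 activin B), -0.20 (AJ activin B) and -0.51 (AJ ALK7 with activin B). Its call was lost in 4 of the 6 fits that left out 1 library for activin B in AJ vector cells and in 2 of 6 for ALK7-CA in βTC3. Slc2a1, the other glucose transporter here, did not pass in AJ at 24 h (log2 -0.45, adjusted p = 0.054) and was lower with the replicate block (-0.46, adjusted p = 0.00153) and with DESeq2 (-0.44, adjusted p = 0.0359). Pfkfb3, which makes the activator of phosphofructokinase, fell in AJ at 2 h (log2 -0.53) and 24 h (-0.59) and in βTC3 with activin B (-0.28). The βTC3 call of Pfkfb3 was lost in 3 of the 6 fits that left out 1 library. Of the phosphofructokinase genes, Pfkl and Pfkm fell in AJ at 24 h (Pfkl in only 2 of the 6 fits that left out 1 library) and Pfkp did not pass in any of the 7 comparisons.

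Of the 9 genes of the lower steps, 5 fell in AJ after 24 h of ALK7-CA (against 19.9% of all genes), and Eno2 also passed as lower with the replicate block (log2 -0.24, adjusted p = 0.00928) and with DESeq2 (-0.23, adjusted p = 0.046). Tpi1, triose phosphate isomerase, had 353, 331 and 370 CPM, against 532, 486 and 621 CPM (log2 -0.64 ± 0.10, adjusted p = 0.000205). Aldoa, the main aldolase, had 244, 208 and 202 CPM, against 352, 311 and 356 CPM (log2 -0.64 ± 0.16, adjusted p = 0.00563). Aldoc, Pkm and Pgam1 fell by 0.41 to 0.50 on the log2 scale, Pkm and Pgam1 being among the genes with shared sequence. The Pgam1 call was lost in 3 of the 6 fits that left out 1 library. With activin B in βTC3, Pgk1, which shares the most sequence with other genes, had 440, 444 and 418 CPM, against 302, 276 and 271 CPM (log2 0.62 ± 0.05), and Eno2 and Pkm rose while Aldoa fell. Eno2, the neuronal and endocrine enolase, rose under activin B in βTC3 (log2 0.25), AJ vector (0.16) and AJ ALK7 cells (0.36).

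In βTC3 vector cells after 24 h of dox, 12 of 41 fell and 0 rose, against the same cells without dox (29.3%, where 23.3% of all genes changed, 10.6% rising and 12.7% falling). Ldha had 208, 185 and 234 CPM at 24 h, against 363, 309 and 366 CPM at 0 h (log2 -0.73 ± 0.16, adjusted p = 0.00651). Ldhb, Hilpda, Aldoc, Pfkp, Pgam1, Bnip3, Pdk1, Slc16a1, Pfkfb3, Tpi1 and Mxi1 fell by 0.18 to 0.57 on the log2 scale. The calls of Hilpda, Aldoc, Bnip3 and Mxi1 were each lost in 4 of the 6 fits that left out 1 library. That of Pdk1 was lost in 3 and that of Tpi1 in 1. With the replicate block 22 genes passed, 3 higher and 19 lower, and without replicate 1 of the 24 h vector group 7 passed. The 24 h vector group is also the control of the ALK7-CA comparison, so Slc16a1, at 43.4, 46.0 and 46.5 CPM without dox, was 1.30-fold lower in that control. Time in culture and dox cannot be told apart here.

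In AJ vector cells 1 of 40 genes, Pfkfb3, changed after 24 h of dox (2.5%, against 2.71% of all genes, 1.43% rising and 1.27% falling; log2 -0.44, adjusted p = 0.0332). With the replicate block 8 passed, DESeq2 called 5, and 0 passed without replicate 1 or 2 of the 24 h group or replicate 2 or 3 of the 0 h group. Replicate 3 of the 24 h group stood apart in Ldha and Pdk1 as shown above; without it 6 genes fell, among them Ldha by 1.71 and Pdk1 by 1.12 on the log2 scale. After 2 h of dox 0 genes passed in either line with edgeR or DESeq2, where 0.00633% of all genes changed in βTC3 and 0% in AJ; 6 genes in βTC3 and 0 in AJ had an unadjusted p under 0.05.

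AJ cells with the ALK7 plasmid and 24 h of dox, without ligand, differed from AJ vector cells without dox in 23 of 39 genes, 14 higher and 9 lower (59%, against 29% of all genes, 14.5% rising and 14.6% falling). P4ha2 had 7.06, 6.81 and 6.52 CPM with ALK7, against 2.53, 3.46 and 2.05 CPM (log2 1.34 ± 0.15, adjusted p = 4.24e-05). Higd1a (log2 0.80), Hk1 (0.77), Ldhb (0.53) and Aldoa (0.48) rose, and Ankrd37 (-0.66), Slc16a3 (-0.51), Slc2a3 (-0.48) and Ndrg1 (-0.47) fell. Pgam1 rose as well (log2 0.54), but its call was lost in 4 of the 6 fits that left out 1 library, and without replicate 3 of the ALK7 group its change was 0.32 (adjusted p = 0.18). Plasmid and dox differ together in these groups, and the vector group is shared with the activin B comparison.

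In vector cells without dox, βTC3 was higher than AJ in 18 and lower in 13 of 41 genes in batch 1 (75.6%, against 72.1% of all genes, 36.5% higher and 35.6% lower), and higher in 17 and lower in 19 of 40 in batch 2 (90%, against 76.1% of all genes, 37.6% higher and 38.5% lower). Epas1 had 1.04, 0.972 and 1.32 CPM in βTC3, against 67.1, 68.2 and 58.5 CPM in AJ in batch 1, and 1.54, 1.72 and 0.948 CPM against 69.4, 65.3 and 65.7 CPM in batch 2. Per kilobase it made up 0.674% and 1.15% of the summed HIF alpha level in βTC3 (batches 1 and 2), against 26.01% and 28.57% in AJ. Of the 2 glucose transporters among the 42 genes, the leading one differed between the lines, with Slc2a3 at 13.62% and 10.49% in βTC3, against 79.11% and 81.77% in AJ, and Slc2a1 holding the rest. Shares cover only family members among the 42 genes. Slc2a2, for one, is left out and had a median of 5.73 CPM over the βTC3 libraries. In some other families the same member led in both lines and batches. Hk1 held 95.73 to 99.82% of the hexokinase level and Aldoa 93.2 to 96.99% of the aldolase level. Eno1 held 73.5 to 91.4% of the enolase level and Pdk3 63.2 to 96.8% of the level of both kinases. The leader changed between lines or batches for phosphofructokinase and lactate dehydrogenase, with shares given below. Slc16a1 held 48.62% and 65.79% of the monocarboxylate transporter level in βTC3 (batches 1 and 2) and 33.57% and 63.88% in AJ. P4ha1 held 64.45% and 48.66% of the collagen prolyl hydroxylase level in βTC3 and 93.03% and 96.66% in AJ.

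βTC3 instead had more P4ha2, with 53.0, 51.4 and 42.1 CPM, against 6.67, 8.56 and 4.88 CPM in AJ in batch 1 (log2 2.87 ± 0.21), and more Pfkp, the platelet phosphofructokinase (log2 2.19 in batch 1 and 2.09 in batch 2). Pfkp made up 38.14% and 25.23% of the phosphofructokinase level per kilobase in βTC3 and 11.62% and 7.26% in AJ, where Pfkm, the muscle form, held 65.45% and 77.31%. Egln3 had 360 summed counts in βTC3, against 2 in AJ in batch 1, a ratio of 202 (95% counting interval 55.5 to 1674), and 156 against 4 in batch 2, a ratio of 34.4 (13.2 to 128). Hif1a was lower in βTC3 in batch 2 (log2 -0.49) and did not pass in batch 1 (-0.18, adjusted p = 0.132; 0.0173 with the replicate block). In all 4 groups Pkm, Pgk1, Tpi1 and Aldoa were the 4 highest of the 42 genes per kilobase.

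**Figure D3:**
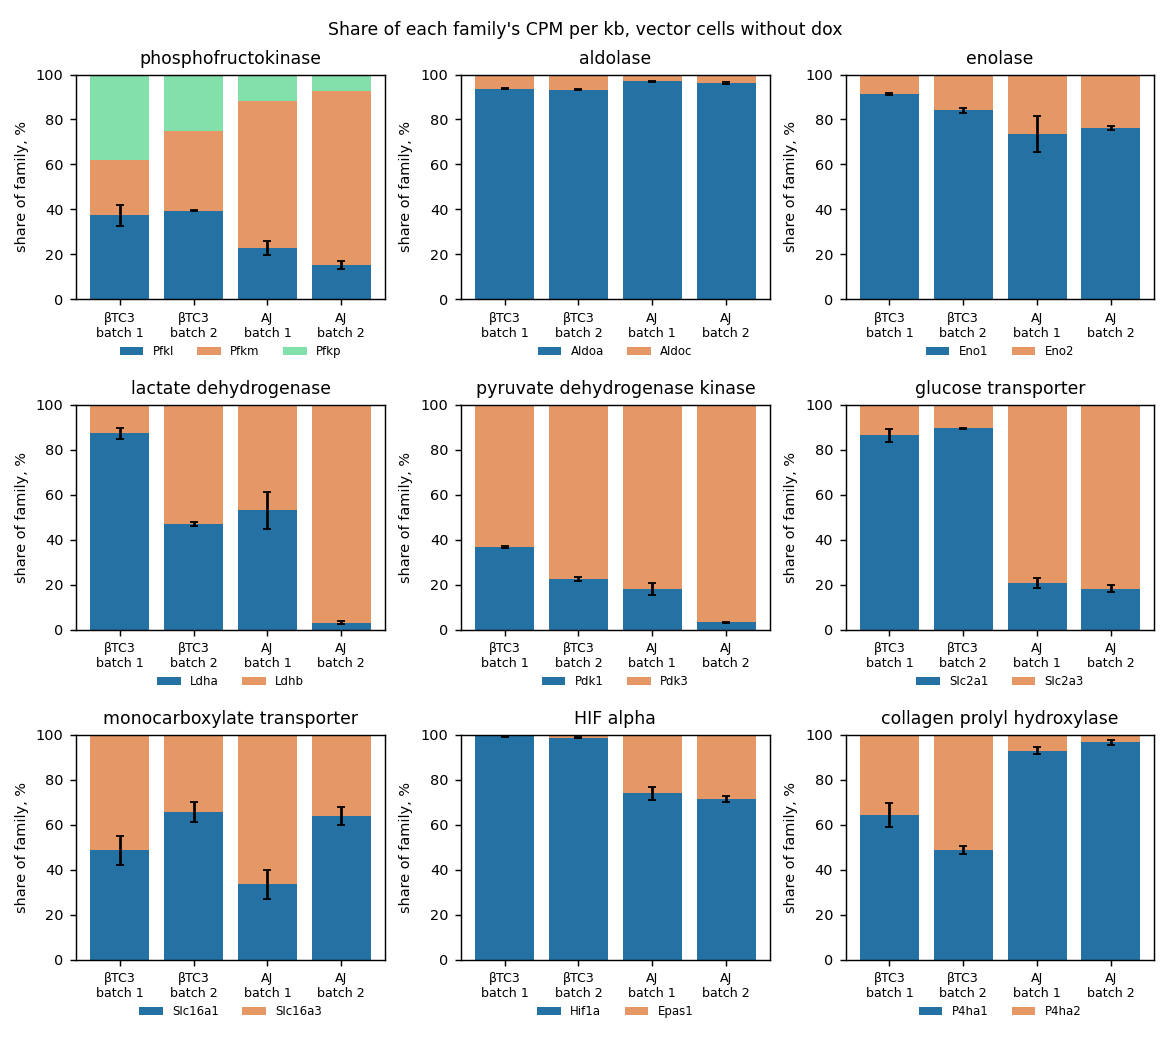
Share of each family's summed level (CPM per kilobase of exons, %) held by its members in vector cells without dox, in βTC3 batches 1 and 2 and AJ batches 1 and 2 (bars stacked to 100%, error bar: SD of the lowest member, 3 libraries). Only family members among the 42 genes are counted. Slc2a1 fills most of the glucose transporter bar in βTC3 and Slc2a3 in AJ, Epas1 is visible in AJ only, and the Ldha share is 3.02% in AJ batch 2.

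**Figure D4:**
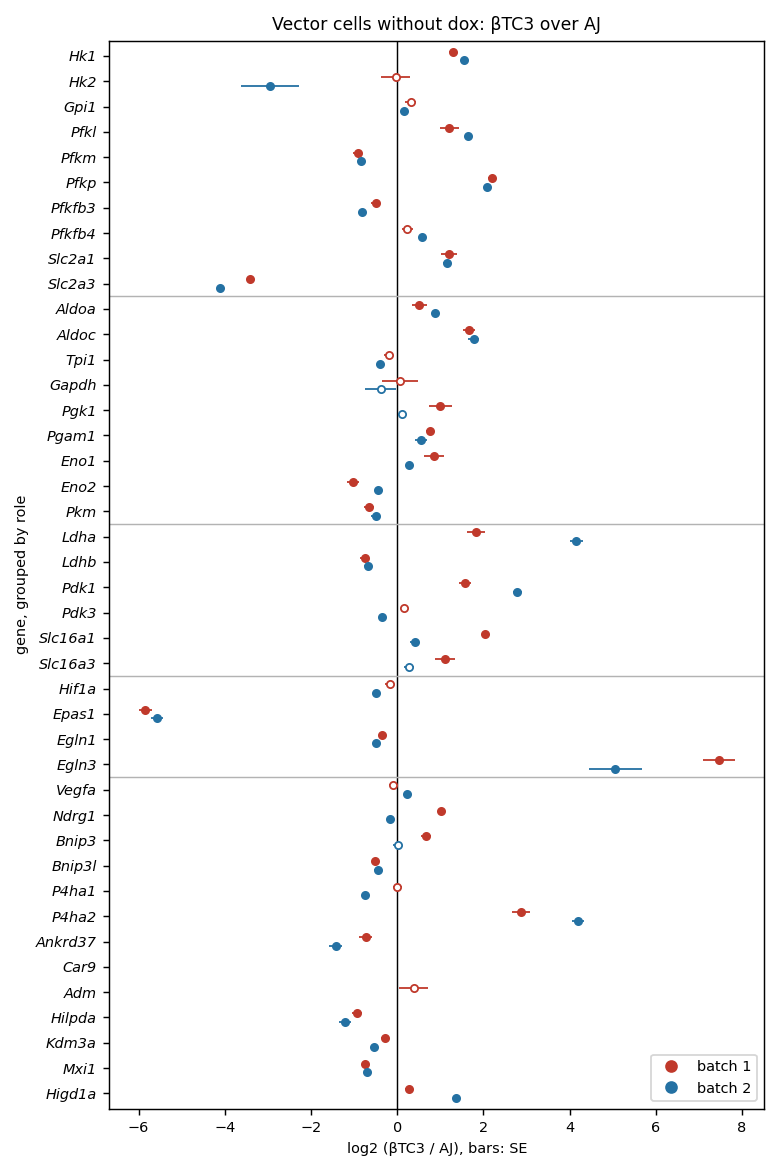
Log2 ratio of βTC3 over AJ vector cells without dox for each gene, in batch 1 (red) and batch 2 (blue), with SE bars; filled points passed edgeR's test. Epas1 and Slc2a3 lie far to the left in both batches, and Egln3, P4ha2, Ldha and Pfkp to the right.

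The same vector cells without dox also differed between the batches, a comparison made after these values had been seen. In βTC3 24 of 41 genes were higher in batch 1 and 0 lower (58.5%, against 37.7% of all genes, 21% rising and 16.7% falling). In AJ 23 of 40 were higher and 6 lower (72.5%, against 38.3% of all genes, 19.3% rising and 19.1% falling). Ldha differed most: it had 363, 309 and 366 CPM in batch 1, against 21.4, 22.7 and 24.0 CPM in batch 2 in βTC3, and 106, 127 and 68.9 CPM, against 0.994, 1.62 and 1.496 CPM in AJ, each scaled within its batch. In a joint fit this was a 14.7-fold difference in βTC3 (log2 3.88 ± 0.10) and a 73.6-fold one in AJ (log2 6.20 ± 0.30). Ldha held 87.28% of the lactate dehydrogenase level per kilobase in batch 1 and 46.95% in batch 2 in βTC3, and 52.98% and 3.02% in AJ.

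Pdk1 (log2 1.26 in βTC3 and 2.46 in AJ), Slc16a3 (2.26 and 1.42), Bnip3 (1.73 and 1.06), Tpi1 (1.21 and 1.00) and Aldoa (1.00 and 1.35) were higher in batch 1 in both lines. Ndrg1 was lower in batch 1 in AJ (log2 -1.20 ± 0.05), where Slc16a1 was lower too (-0.44), whereas Slc16a1 was higher in batch 1 in βTC3 (1.20 ± 0.10). Vegfa, Epas1 and Slc2a1 did not pass in either line. The labels record only a batch number, and culture, RNA and sequencing cannot be told apart in it. Comparisons of ALK7-CA (batch 1) with activin B (batch 2) start from these different levels.

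**Figure D5:**
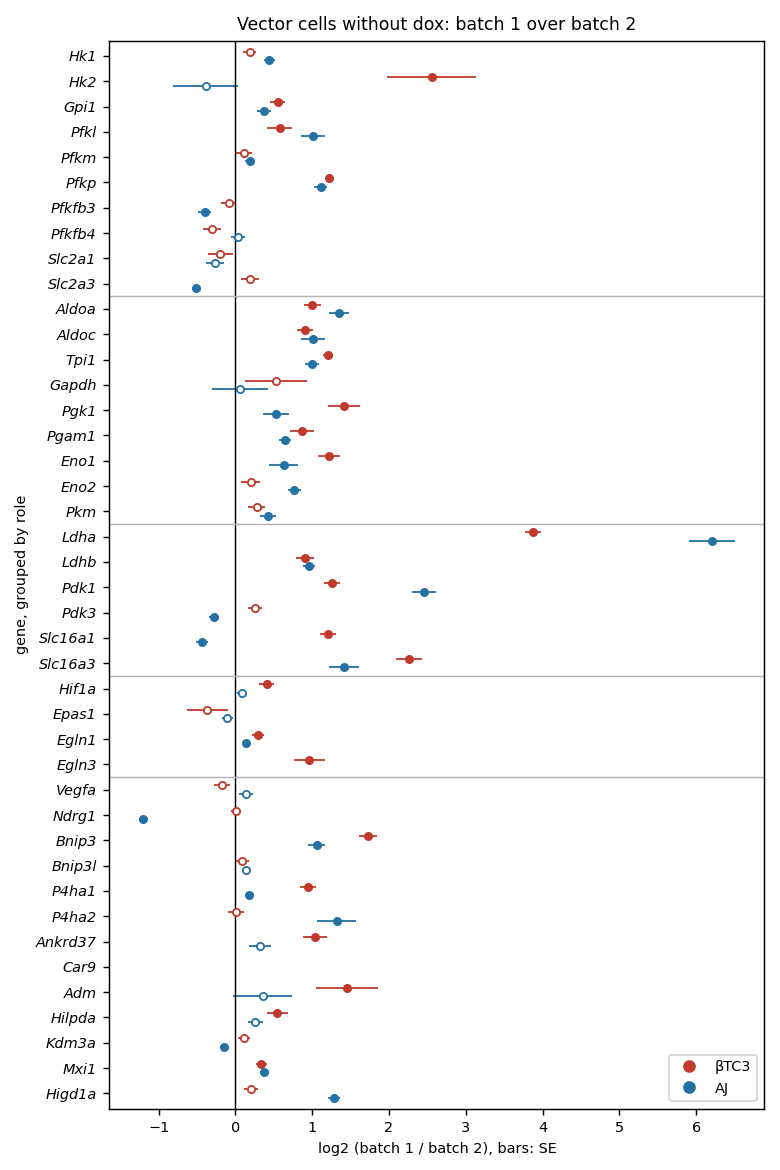
Log2 ratio of batch 1 over batch 2 for vector cells without dox, in βTC3 (red) and AJ (blue), with SE bars; filled points passed edgeR's test. Most points lie right of 0, with Ldha at 3.88 and 6.20, while Ndrg1 and Slc16a1 of AJ lie left of it.

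Other genes of the same pathways were taken from further lists by name. Of 17 other glycolytic isozymes and regulators, 3 of 13 tested fell in βTC3 after 24 h of ALK7-CA (Pfkfb2, Tigar and Hkdc1), and 2 of 12 rose and 4 fell in AJ, where 20.8% of all genes rose and 19.9% fell; in βTC3 8.02% rose and 5.48% fell. Of 12 genes of the HIF machinery, 1 of 11 rose in βTC3, Arnt2 at 5.19 CPM against 2.68 CPM, and 3 of 10 rose and 2 fell in AJ (against 40.7% of all genes in either direction). Cited2, a competitor of HIF for its coactivators, fell there to 16.7 CPM, against 57.6 CPM (log2 -1.79, adjusted p = 1.81e-08), and also fell with activin B in AJ vector (log2 -0.68) and AJ ALK7 cells (-0.46).

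Of 38 further HIF target genes, 37 of them matched, 5 of 32 rose in βTC3 after 24 h of ALK7-CA, and 10 of 33 rose and 9 fell in AJ (against 13.5% of all genes changing in βTC3 and 40.7% in AJ); the median log2 change was 0.06 in βTC3 and 0.07 in AJ. Bhlhe40, a transcriptional repressor, rose in both lines, to 46.8 CPM, against 23.5 CPM, in βTC3 and to 28.5 CPM, against 10.2 CPM, in AJ. Stc2, a secreted glycoprotein, fell in AJ to 11.4 CPM, against 36.6 CPM. Bhlhe40 also rose with activin B in βTC3 (log2 1.09), AJ vector (0.99) and AJ ALK7 cells (1.75).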

How the data were processed

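PolyA RNA of 48 libraries was sequenced from stranded libraries, per the labels' protocols. The submitters' processing notes name HISAT2 and the mm10 build, featureCounts 1.4.4, edgeR, bcl2fastq 2.17 and cutadapt 1.4.2. No source used here gives the strand setting, the annotation or the treatment of multiply mapped reads. The deposited files hold raw counts per Ensembl gene. A deposited table of normalized values in 48 columns was not used, since its scale is not stated. Symbols come from GENCODE (37693 of 39017 identifiers matched).

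The 42 genes and the further lists were chosen with earlier results of these data known. All genes were tested with edgeR 4.0.16 in R 4.3.3 (filterByExpr, TMM, quasi-likelihood F test, Benjamini-Hochberg over all tested genes, threshold 0.05), fitted over all libraries of a line and batch; contrasts across lines or batches used only their own groups. "Rose" and "fell" mean an adjusted p under 0.05. SE is the log2 change divided by the root of F. CPM are scaled within each line and batch, with these exceptions. Values comparing the lines are scaled over the libraries of both lines in that comparison. Marker levels, coefficients of variation and ratios of summed counts are scaled by total count. The procedure was tested on simulated data. No replicates were identical; chi-square per gene between replicates was at least 6.35.

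Genes were named as follows: library values for genes changed by at least 1 on the log2 scale, up to 12 further ones per comparison by adjusted p, the largest line differences, and Hif1a and Epas1; non-members only from the further lists, up to 3 per list. Shares of counts and counting intervals cover counting error only. Same-numbered replicates deviated together (r over 0.1 for each number) in 10 of 10 pairs of groups in βTC3 batch 1, 9 of 10 in AJ batch 1, the pair in βTC3 batch 2 and 0 of 6 in AJ batch 2, so the block is reported for βTC3 and for batch 1 of AJ. DESeq2 1.42.0, RLE scaling, no filter, a filter of 1 CPM in 3 libraries, the libraries compared alone, the block and leaving out each library were tried. Batch comparisons were added after seeing the data.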

Additional observations from a re-analysis of the deposited data

Results flagged for a closer look

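Effects that differed between times, lines, receptors or kinds of activation were picked out where the test of the difference passed, with at least 1 on the log2 scale for all but the ALK7 against vector test. Differences are log2 values of the effect named before minus the other.

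Between 24 and 2 h of ALK7-CA, the change of Slc16a1 was larger by 1.31 in βTC3 (1.31 at 24 h and 0.00 at 2 h) and by 1.65 in AJ (0.98 and -0.67). Hk2 differed by -2.11 in βTC3, on few counts and with its call lost in 5 of the 12 fits that left out 1 library. In AJ, P4ha2 differed by 2.28 (2.52 and 0.24) and Epas1 by -1.94 (-2.05 and -0.11).

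Between βTC3 and AJ at 24 h of ALK7-CA, the differences were -2.37 for P4ha2, -1.66 for Hk2, -1.14 for Hk1, 1.05 for Epas1 and 1.47 for Ndrg1. The Hk2 call was lost in 3 of the 12 fits that left out 1 library and the Epas1 call in 1. Ndrg1 changed by 0.03 in βTC3 and by -1.44 in AJ. With activin B, the lines differed by -1.15 for Hk1 and 1.05 for Slc16a1.

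In AJ, the change with activin B in ALK7 cells differed from that in vector cells by 0.49 for Slc16a1, 0.36 for Epas1 and -0.48 for Ndrg1. Plasmid and dox differ together in that test. Its call for Slc16a1 was lost in 7 of the 12 fits that left out 1 library, and for Epas1 in 4. Between ALK7-CA and activin B in AJ, the differences were 1.81 for P4ha2, 1.17 for Higd1a, -1.20 for Epas1 and -1.10 for Ankrd37. Batch and dox differ with them. The Ankrd37 call was lost in 4 of the 12 fits that left out 1 library.

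The difference between βTC3 and AJ in batch 1 minus that in batch 2 passed for 11 genes upward and 5 downward of 41 (39%, against 34.8% of all genes), and reached at least 1 on the log2 scale for 7, with 2.96 for Hk2, 1.66 for Slc16a1, 1.22 for Ndrg1, -1.06 for Higd1a, -1.18 for Pdk1, -1.30 for P4ha2 and -2.30 for Ldha. Ndrg1 was higher in βTC3 than AJ in batch 1 (1.02) and lower in batch 2 (-0.17). This comparison was added after seeing the data.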

How the results depend on the processing

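Of 4003 values of called genes under the alternatives, 3675 kept their direction and call, 328 kept their direction without passing, 286 of these with 1 library left out, and 0 reversed. Counts of called genes moved by over 1.5 times as follows. With the replicate block βTC3 ALK7-CA at 24 h had 14, at 2 h 7, their difference 11, ALK7-CA against activin B in βTC3 5, dox at 24 h 22 in βTC3 and 8 in AJ. The block kept all 250 calls it was run on and changed no other count by that much. The share of all genes passing in the blocked fits is not given here. βTC3 at 2 h had 1 with DESeq2, RLE scaling or the 1 CPM filter. With only the libraries compared, dox at 24 h had 7 in βTC3 and 0 in AJ, where DESeq2 gave 5. With 1 library left out the counts ran from 5 to 8 for βTC3 ALK7-CA at 24 h (5 without replicate 1 of its vector group), 7 to 11 for dox at 24 h in βTC3, 0 to 6 in AJ, 2 to 5 for the difference of times in βTC3, 8 to 11 for AJ at 2 h, 21 to 28 for AJ at 24 h, 1 to 3 for ALK7 against vector (1 without replicate 1 of the AJ vector group of batch 2) and 0 to 1 for ALK7-CA against activin B in βTC3. Leaving out 1 library leaves 2 in its group. The batch comparisons have no blocked fit. Depth limits Car9, Hk2, Adm and, in AJ, Egln3.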

Other observations

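Of 13 genes that govern the entry of pyruvate into mitochondria, 2 of 12 tested rose and 2 fell in AJ after 24 h of ALK7-CA, where 20.8% of all genes rose and 19.9% fell. The pyruvate dehydrogenase phosphatase Pdp1 rose to 96.1 CPM, against 58.0 CPM in vector cells, Pdk2 rose to 17.5 CPM, against 11.4 CPM, and pyruvate carboxylase, Pcx, fell to 83.1 CPM, against 127 CPM. Pcx also fell with activin B in AJ ALK7 cells (log2 -0.73), AJ vector cells (-0.43) and βTC3 (-0.25).

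Of 7 pentose phosphate genes, 2 rose in βTC3 with activin B, Rpia (log2 0.35) and G6pdx (0.18), and 2 fell in AJ ALK7 cells with activin B; 22.2% and 32.8% of all genes changed in these comparisons. Among 7 genes of gluconeogenesis, G6pc2, the islet glucose 6-phosphatase, rose in βTC3 with ALK7-CA (log2 0.27) and with activin B (0.27) and fell in AJ ALK7 cells with activin B (-0.62). Fbp2, the muscle fructose bisphosphatase, was at 2.25 CPM after 24 h of ALK7-CA in AJ, against 0.235 CPM in vector cells (log2 3.25, adjusted p = 5.83e-07).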
